A study of Mus musculus with 6 samples.

Results

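The insulin-like growth factor (IGF) system was described here by 10 genes, the ligands Igf1 and Igf2, the receptors Igf1r and Igf2r, and the binding proteins Igfbp2 to Igfbp7. They were taken by symbol from a deposited table of 13595 genes, and all 10 were listed. The values are normalized read counts from poly(A) RNA sequencing of 6 libraries of cultured primary CD31-positive cells, isolated from the liver of C57BL6/J mice 4 weeks old. All 6 libraries received the same treatment, 100 µM indoxyl sulfate, a tryptophan metabolite that activates the aryl hydrocarbon receptor, with hypoxia and nutrient deprivation for 6 hours. Of these, 3 were labelled male and 3 labelled female, with replicate numbers 4, 5 and 6 in each group, so the contrast is that of the sex labels under treatment. The effect of the treatment itself was not analysed here. The labels do not say whether replicates are separate mice, isolations or wells, and p-values measure only the spread between these libraries. No batch is named in the labels, and a batch that followed the sex label cannot be told apart from it.

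IGF-1 and IGF-2 are secreted growth factors that signal through the IGF-1 receptor, a tyrosine kinase, to the PI3K-AKT and MAPK pathways. The IGF-2 receptor has no kinase and carries IGF-2, and proteins tagged with mannose 6-phosphate, to lysosomes. The IGF-binding proteins hold the ligands outside the cell, prolong their life and limit or direct their access to the receptor, until proteases such as PAPP-A cut them. In the liver, hepatocytes make most circulating IGF-1, whereas several binding proteins are made by endothelial and mesenchymal cells.

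Libraries held between 22303270 and 31189363 reads over the listed genes, and 3 reads equalled 0.106 to 0.142 on the normalized scale, depending on the library. The sex labels held only in part: Xist stood at 286 ± 46.7 (SD, n = 3) in the female-labelled libraries and 0.323 ± 0.176 (SD, n = 3) in the male-labelled ones, but the Y-linked Ddx3y was at 52.1 ± 4.93 (SD, n = 3) in the female-labelled ones and 57.0 ± 16.8 (SD, n = 3) in the male-labelled ones. Eif2s3y, also Y-linked, was at 29.8 ± 0.411 and 58.1 ± 2.97 and Kdm5d at 19.1 ± 1.61 and 34.8 ± 3.61 (SD, n = 3), lower in the female-labelled libraries but present in each. Each direction below therefore rests on the labels. One library, replicate 4 of the male-labelled ones (male 4), stood apart from its group, with a chi-square statistic per gene (near 1 for sampling alone) of 43.6 and 45.4 against male 5 and male 6, which gave 5.98 with each other. The endothelial markers Pecam1 (CD31) and Cdh5 were present in every library, at 407 ± 16.2 and 924 ± 5.58 in the male-labelled ones and 73.9 ± 0.540 and 387 ± 11.9 in the female-labelled ones (SD, n = 3). All 10 endothelial markers summed to between 2176 and 2271 in the male-labelled libraries and between 1158 and 1221 in the female-labelled ones. In the latter Tie1 (4.89 ± 0.491), Tek (3.83 ± 0.355), Egfl7 (2.79 ± 0.654), Erg (1.52 ± 0.820) and Vwf (0.491 ± 0.104) were low. Kdr was low in both groups, at 3.63 ± 0.392 and 2.95 ± 0.636, and Eng went the other way, at 313 ± 21.3 and 415 ± 13.9 (SD, n = 3). The 8 sinusoidal endothelial markers summed to between 508 and 549 in the male-labelled libraries and between 18.1 and 21.2 in the female-labelled ones. Lyve1 was at 498 ± 24.8 and 4.98 ± 0.566 and made up most of the sum in the male-labelled libraries, whereas Flt4 was the larger part in the female-labelled ones, at 12.2, 10.1 and 10.5 in female 4, 5 and 6 (SD, n = 3). The defining markers Stab2, Clec4g and Fcgr2b were at or near 0 in all 6 libraries. Summed over 8 smooth muscle and mural markers, the level ran from 143 to 302 in the male-labelled libraries and from 2627 to 3344 in the female-labelled ones, and over 10 listed fibroblast and stellate markers from 2817 to 3522 and from 970 to 988. The 8 mesothelial markers summed to between 524 and 616 and between 523 and 527. Within that list Krt19 was at 461 ± 47.7 and 116 ± 20.2 and Krt18 at 95.96 ± 2.20 and 49.7 ± 4.97, whereas Msln was at 19.4 ± 1.97 and 332 ± 29.6 (SD, n = 3) and Upk3b at 0 in every male-labelled library. The 7 cholangiocyte markers summed to between 1648 and 2496 and between 513 and 615, mostly from Spp1 (1368 ± 379.7 and 376 ± 42.9), Sox9 (353 ± 50.8 and 66.3 ± 8.08) and Krt19, which is also in the mesothelial list (SD, n = 3). Epcam was near 0 in every library, and Krt7 went the other way, at 1.84 ± 0.685 and 9.19 ± 1.45 (SD, n = 3). Hepatocyte markers summed to at most 13.5 and macrophage markers to at most 18.2 in any library. The part of these cell populations in the results below was not tested, and in bulk RNA fewer cells of a type and less RNA per cell cannot be told apart.

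Of the 10 members, 8 had a limma adjusted p under 0.05 (Benjamini-Hochberg over all genes), 5 lower and 3 higher in the female-labelled libraries. Over all 12568 genes tested, 69.3% passed the same threshold, 34.6% in each direction, so the number of members called was near that of genes in general. The groups did not overlap for the same 8 members, against 74.1% of all genes tested. The median log2 fold change of the members was -0.60, and that of all genes tested 0.01. All 10 passed the filter on low values, Igfbp2 only through the female-labelled libraries and Igfbp5 only through the male-labelled ones. These 2 genes passed by being high in 1 group, and their being called adds nothing to the count. Log2 fold changes are given on the scale of log2(normalized read count + 1), where the change of a gene with few reads comes out too small.

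**Figure D1:**
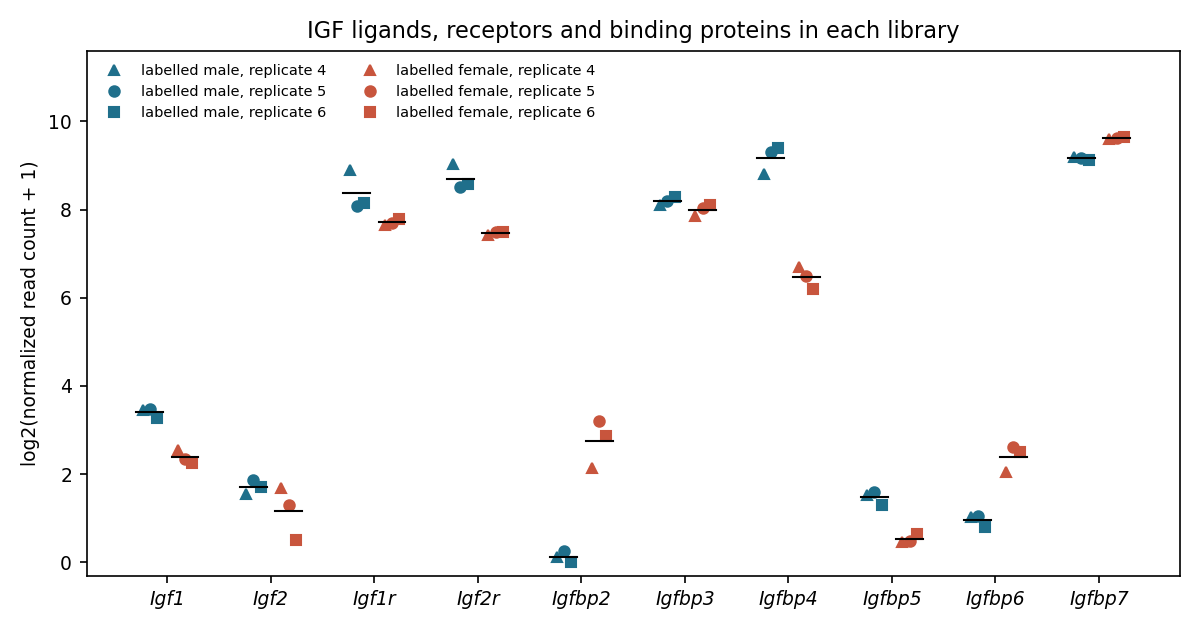
Normalized read counts of the 10 genes on a scale of log2(value + 1), with 1 point for each library, shape for the replicate number, colour for the sex label and a line for the group mean. Igfbp4, Igfbp2, Igf2r and Igf1 show groups apart, Igfbp3 and Igf2 overlap, and male 4 lies above its group for Igf1r and Igf2r and below it for Igfbp4.

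Both ligands were weakly expressed. Igf1 (chromosome 10), the main growth hormone-dependent IGF, was at 9.95, 10.2 and 8.69 in male 4, 5 and 6 and at 4.81, 4.07 and 3.799 in female 4, 5 and 6. Every female-labelled library lay below every male-labelled library. Its log2 fold change was -1.02 (SE 0.12, adjusted p 8.65e-05 by limma), and the group mean was 44.0% of that in the male-labelled libraries. The counts behind it were 753 reads in 3 male-labelled libraries and 288 in the female-labelled ones.

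Igf2 (chromosome 7), an imprinted fetal growth factor expressed from the paternal copy, was at 1.95, 2.63 and 2.26 in male 4, 5 and 6 and at 2.24, 1.46 and 0.427 in female 4, 5 and 6. The groups overlapped, and the lowest value, in female 6, rested on 9 reads. The log2 fold change of -0.54 (SE 0.27, 95% interval -1.16 to 0.08) did not pass the threshold (limma adjusted p 0.106). Without female 4 it was -0.80 with an adjusted p of 0.0261, and without female 6 it was -0.21. Igf2 shares 62.1% of its 50-mers with other annotated transcripts, mainly those of a readthrough gene on the same strand that is not among the listed genes, so reads may have been split between them and the value of Igf2 is uncertain. H19, the maternally expressed RNA of the same imprinted domain, was read at 115 ± 11.61 in the male-labelled libraries and 3.25 ± 1.49 in the female-labelled ones (SD, n = 3).

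The receptors were expressed far above the ligands, and both fell in the female-labelled libraries. Igf1r (chromosome 7), the signalling receptor, was at 474, 269 and 283 in male 4, 5 and 6 and at 200.5, 208 and 218 in female 4, 5 and 6. The groups did not overlap, and male 4 was far above the other two. The log2 fold change was -0.66 (SE 0.19, adjusted p 0.0135 by limma). Without male 4 it was -0.40 (adjusted p 5.72e-05), with the group mean at 75.7% instead of 61.1% of that in the male-labelled libraries. Without female 4 it was -0.63 with an adjusted p of 0.0508, a difference of much the same size that no longer passed.

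Igf2r (chromosome 17), the receptor for IGF-2 and mannose 6-phosphate and a maternally expressed imprinted gene in the mouse, was at 519, 362 and 381 in male 4, 5 and 6 and at 172, 179 and 178 in female 4, 5 and 6. Its female-labelled libraries lay within a narrow band well below the lowest male-labelled library. The log2 fold change was -1.23 (SE 0.12, adjusted p 4.06e-05 by limma), and -1.07 without male 4. Airn, the antisense RNA that starts inside Igf2r, averaged 5.87 ± 0.204 in the male-labelled libraries and 2.24 ± 0.771 in the female-labelled ones (SD, n = 3), and its log2 difference of -1.12 passed the test (SE 0.18, adjusted p 0.000622 by limma). Annotated exons of the 2 genes share no bases.

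The balance between receptors differed too. Within a library, the Igf2r to Igf1r ratio of normalized read counts was 1.09, 1.34 and 1.35 in male 4, 5 and 6 and 0.858, 0.860 and 0.815 in female 4, 5 and 6. The ratio of Igf2r to M6pr, the small cation-dependent mannose 6-phosphate receptor, was 4.28, 3.05 and 2.93 against 1.46, 1.55 and 1.57. M6pr itself was at 123 ± 5.99 and 116 ± 2.35 (SD, n = 3) and did not pass the threshold (log2 fold change -0.09, limma adjusted p 0.193). Its groups did not overlap, by a small margin (119 in male 5 and 118 in female 4). Groups were apart for both ratios (exact two-sided permutation p 0.1 for each, the smallest that 3 against 3 libraries allow). The Igf1r to Insr ratio was 2.80, 2.21 and 2.19 against 2.77, 2.95 and 3.0, and overlapped between the groups through male 4 (exact two-sided permutation p 0.2). The Igf1 to Igf2 ratio was 5.11, 3.87 and 3.84 against 2.15, 2.79 and 8.89 and did not separate them (exact two-sided permutation p 1). Insr, the insulin receptor, which can pair with the IGF-1 receptor in hybrids, fell with it (log2 fold change -0.94, SE 0.11, limma adjusted p 0.000124).

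**Figure D2:**
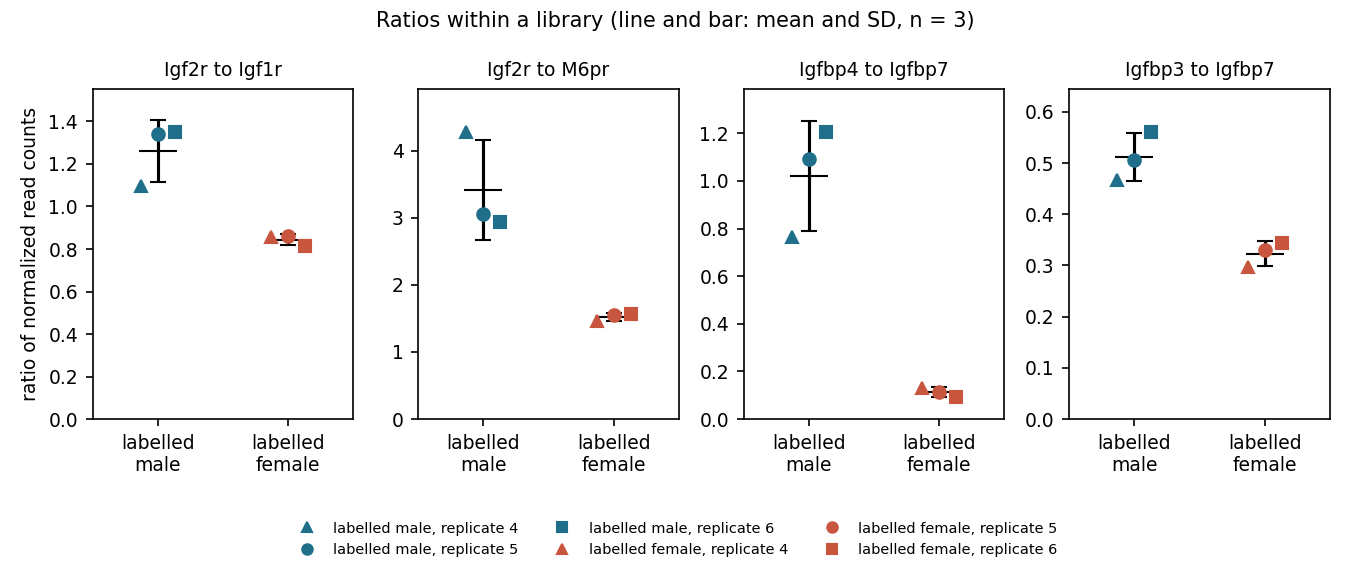
Ratios of normalized read counts within each library for 4 gene pairs, on linear axes that start at 0, with points for libraries and a line and bar for the mean and SD (n = 3). All 4 ratios are lower in the 3 female-labelled libraries than in any male-labelled library, and the female-labelled mean is the smallest share of the male-labelled one for Igfbp4 to Igfbp7, with means of 1.02 and 0.112.

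Among the binding proteins, the most abundant ones were Igfbp7, Igfbp4 and Igfbp3, and they did not move together. Igfbp4 (chromosome 11), which holds IGFs away from the receptor until PAPP-A cuts it, was at 448, 630 and 673 in male 4, 5 and 6 and at 103, 89.0 and 72.9 in female 4, 5 and 6. The highest female-labelled library, at 103, lay far below the lowest male-labelled one, at 448. Its log2 fold change of -2.70 (SE 0.17, adjusted p 2.61e-06 by limma) was exceeded in size by 2.59% of the genes tested. Without male 4 it was -2.88, and the mean in the female-labelled libraries was 15.1% of that in the male-labelled ones with male 4 and 13.6% without it.

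Igfbp7 (chromosome 5), a vascular basement membrane protein with low affinity for IGFs, was higher in the female-labelled libraries. It was at 587, 576 and 558 in male 4, 5 and 6 and at 780, 787 and 799 in female 4, 5 and 6. Replicates agreed closely in both groups, so that a modest log2 fold change of 0.46 (SE 0.06) gave a limma adjusted p of 0.000126. At its first exon Igfbp7 shares 7.03% of its exon bases with Polr2b on the opposite strand, and the strand setting of the counts is not given in the sources used here.

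Igfbp3 (chromosome 11), the main carrier of IGFs in plasma, was at 274, 292 and 313 in male 4, 5 and 6 and at 231, 259 and 275 in female 4, 5 and 6. The groups overlapped by a small margin, between female 6 and male 4. The log2 fold change was -0.20 (SE 0.08, 95% interval -0.39 to -0.01), with a limma adjusted p of 0.0551. Igfbp3 stood at the threshold: it passed as lower without male 4 (-0.25, adjusted p 0.00982) and with edgeR on recovered reads (-0.21, adjusted p 0.0440), and not after quantile normalization (-0.09, adjusted p 0.389) or without female 4 (-0.13, adjusted p 0.201). Against Igfbp7 in the same library, Igfbp3 was at 0.467, 0.507 and 0.561 in male 4, 5 and 6 and 0.296, 0.330 and 0.344 in female 4, 5 and 6, and Igfbp4 was at 0.764, 1.09 and 1.21 against 0.132, 0.113 and 0.0913. Both ratios were apart between groups (exact two-sided permutation p 0.1, the smallest possible).

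The other 3 binding proteins were expressed at a few normalized reads or fewer, and 2 of them were higher in the female-labelled libraries. Igfbp2 (chromosome 1), a binding protein with a preference for IGF-2, held 2, 5 and 0 reads in male 4, 5 and 6, or 0.0829, 0.191 and 0 as normalized read counts. It was at 3.44, 8.27 and 6.27 in female 4, 5 and 6, from 83, 187 and 132 reads. The gene was thus close to absent from the male-labelled libraries and present at a low level in the female-labelled ones. Over summed reads scaled for library factors, the fold was 66.6, with a 95% interval of 32.1 to 167 that covers counting error only. On the log2(value + 1) scale the difference was 2.62 (SE 0.25, adjusted p 2.68e-05 by limma), and edgeR on recovered reads gave 5.98.

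Igfbp6 (chromosome 15), which prefers IGF-2 more strongly than the others do, was at 1.04, 1.07 and 0.742 in male 4, 5 and 6 and at 3.11, 5.17 and 4.65 in female 4, 5 and 6. Each female-labelled library lay above each male-labelled one. The log2 fold change was 1.43 (SE 0.17, adjusted p 0.000107 by limma), or 2.17 with edgeR on recovered reads. In the same libraries 5 of 7 tested mesothelial markers were called higher and 2 lower, with Msln (log2 fold change 4.03) higher and Krt19 (-1.99) and Krt18 (-0.94) lower. Of the 5 higher ones, Wt1, Upk3b and Gpm6a passed the filter on low values only through the female-labelled libraries, so their calls add nothing to that count. Of 7 tested smooth muscle and mural markers, 4 were called higher and 2 lower, with Myh11 (5.54) higher and Rgs5 (-2.17) and Cspg4 (-1.05) lower. Over all genes tested 69.3% were called, 34.6% in each direction, and nothing is read from either count. The part of these cells in the result was not tested.

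Igfbp5 (chromosome 1), a matrix-bound binding protein common in fibroblasts and smooth muscle, was at 1.91, 2.02 and 1.45 in male 4, 5 and 6 and at 0.374, 0.398 and 0.570 in female 4, 5 and 6. It was lower in every female-labelled library, where it rested on 9, 9 and 12 reads. The log2 fold change was -0.94 (SE 0.13, adjusted p 0.000270 by limma), and -2.01 with edgeR on recovered reads. Igfbp5 is the nearest protein-coding neighbour of Igfbp2, and the neighbours differed in opposite directions. Each passed the filter on low values only through the group in which it was high, so nothing is read from the opposite directions. Igfbp1, the hypoxia-inducible neighbour of Igfbp3 and no member of the group described here, held 3, 1 and 3 reads in male 4, 5 and 6 and 0, 1 and 0 in female 4, 5 and 6, and was not tested.

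**Figure D3:**
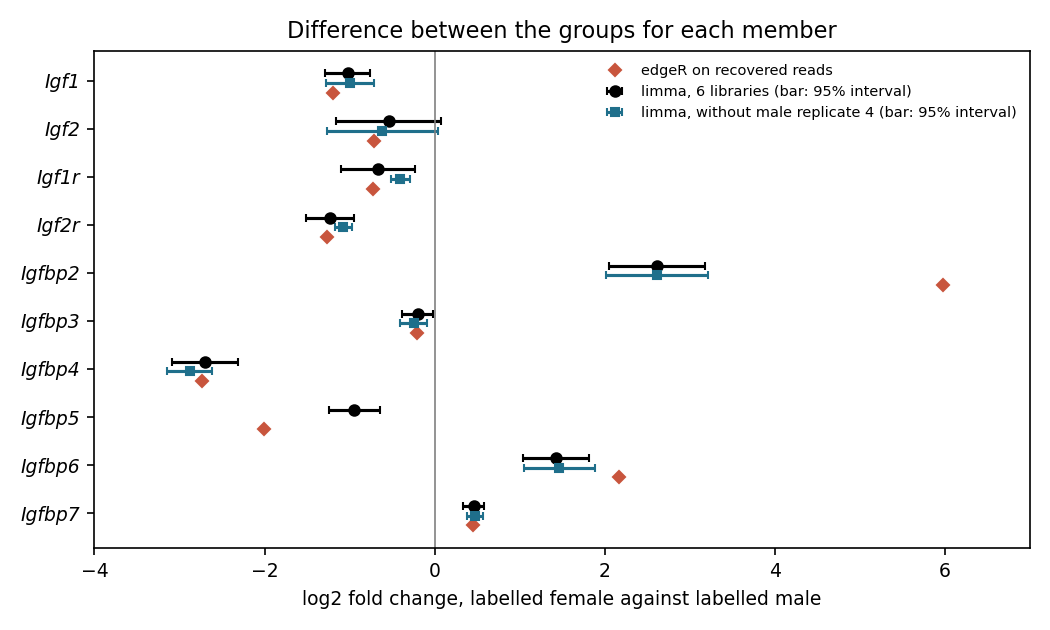
Log2 fold change of each of the 10 genes between female-labelled and male-labelled libraries, by limma with 6 libraries, by limma without male 4 (bars are 95% intervals) and by edgeR on recovered reads. The estimates lie on 1 side of 0 for each gene, Igf1r is smaller without male 4 (-0.40 against -0.66), and the weakly expressed Igfbp2, Igfbp5 and Igfbp6 are larger with edgeR. Igfbp5 has no limma value without male 4, where it falls under the filter on low values.

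Levels of different genes were compared per kilobase of transcript, and for Igfbp4 and Igf1 the level depends on the length assumed. The longest annotated coding transcript of Igfbp4 has 3.83 kilobases and the median one 0.742, and those of Igf1 have 7.05 and 1.37. With the longest transcript, Igfbp7 was highest in the male-labelled libraries at 478 ± 12.2 normalized reads per kilobase, followed by Igfbp4 (152 ± 31.1), Igfbp3 (121 ± 8.05), Igf2r (47.3 ± 9.65) and Igf1r (29.98 ± 10.04), where Igfbp4 overlapped with Igfbp3 and Igf2r with Igf1r (SD, n = 3). With the median transcript the order turned, with Igfbp4 at 787 above Igfbp7 at 495. In the female-labelled libraries Igfbp7 was highest with either length, at 657 ± 8.05 with the longest, and Igfbp3 was at 105 ± 9.22 (SD, n = 3). Igfbp4 was at 23.1 ± 3.95 there, overlapping with Igf2r (19.8 ± 0.413) and Igf1r (18.3 ± 0.783), but with the median transcript it was at 119, near Igfbp3 at 124 and far above both receptors. Below them came Igfbp2 (4.59 ± 1.85) and Igfbp6 (3.88 ± 0.963), which overlapped, then Igf1 (0.599 ± 0.0746, or 3.09 with the median transcript, near Igfbp6), and last Igf2 (0.291 ± 0.193) and Igfbp5 (0.0744 ± 0.0178), which overlapped in female 6.

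The sum of the 6 binding proteins has no direction that holds for both lengths. With the longest transcripts it was 721, 767 and 771 per kilobase in male 4, 5 and 6 and 777, 798 and 807 in female 4, 5 and 6, a female-labelled mean of 105% of the male-labelled one (exact two-sided permutation p 0.1). With the median transcripts it was 1245, 1490 and 1541 against 929.9, 937 and 931, or 65.4% (exact two-sided permutation p 0.1). The make-up differed in the same direction with both lengths for Igfbp4 and Igfbp7. With the longest transcripts Igfbp4 held 20.2% ± 3.46 and 2.91% ± 0.554 of the sum, and Igfbp7 63.6% ± 3.87 and 82.8% ± 0.699, in the male-labelled and female-labelled libraries (SD, n = 3, exact two-sided permutation p 0.1, the smallest possible, for each). With the median transcripts Igfbp4 held 54.8% and 12.8%, and Igfbp7 35.1% and 73.0%. Of the 6 ratios, 2 sums and 6 shares tested in this way none can pass 0.05, before or after adjustment.

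The 3 promoters below belong to the members with the largest differences on each side and to the receptor with the larger one, and give the 250 bases before the RefSeq gene start (build GRCm38.p6). Read 5′ to 3′ on the gene's strand, capitals mark the letters ACGTG, which hypoxia-inducible factors bind, and GCGTG, the core bound by the aryl hydrocarbon receptor with ARNT, on either strand, and TATAA on the gene's strand. GCGTG is also bound by hypoxia-inducible factors, and CACGTG reads as ACGTG on both strands.
Igfbp4 (chr11:99040994-99041243, plus strand): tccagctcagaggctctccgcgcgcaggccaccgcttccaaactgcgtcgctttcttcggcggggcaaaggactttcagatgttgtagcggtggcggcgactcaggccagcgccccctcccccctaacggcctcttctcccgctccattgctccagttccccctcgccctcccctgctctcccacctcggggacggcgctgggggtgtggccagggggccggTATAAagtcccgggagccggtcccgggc
Igfbp2 (chr1:72824230-72824479, plus strand): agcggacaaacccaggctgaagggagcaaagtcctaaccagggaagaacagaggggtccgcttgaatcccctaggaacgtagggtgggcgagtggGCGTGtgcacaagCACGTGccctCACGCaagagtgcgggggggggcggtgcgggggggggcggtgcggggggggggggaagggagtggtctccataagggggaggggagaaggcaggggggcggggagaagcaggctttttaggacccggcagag
Igf2r (chr17:12769707-12769956, minus strand): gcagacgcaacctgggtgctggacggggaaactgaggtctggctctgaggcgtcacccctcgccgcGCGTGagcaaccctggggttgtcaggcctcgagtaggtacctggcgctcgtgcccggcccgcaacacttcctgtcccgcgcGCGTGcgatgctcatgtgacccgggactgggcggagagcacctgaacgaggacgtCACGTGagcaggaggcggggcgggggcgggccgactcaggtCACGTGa
The Igfbp4 window holds TATAA 28 bases before the gene start and neither of the other motifs. The first of 2 Igfbp2 starts has GCGTG 155 and, on the other strand, 132 bases before the start, with CACGTG at 142 bases. In Igf2r, GCGTG lies 184 and 103 bases and CACGTG 48 and 7 bases before the start. Of all 32851 windows of this length in the RefSeq table, 16.6% hold ACGTG, 28.2% hold GCGTG, 38.6% hold either and 16.0% hold TATAA. All 10 members were matched, with 14 windows, of which 7 hold either ACGTG or GCGTG. A match of letters is a description and shows no binding.

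Of the other genes of the pathway, 68 in 7 lists, 63 were listed and 61 tested, with 18 called higher and 29 lower (limma adjusted p under 0.05) and a median log2 fold change of -0.27. Over all genes tested 69.3% were called, 34.6% in each direction, and nothing particular to the pathway is read from its counts. Of 10 tested proteases that free IGFs and their inhibitors, 2 were called higher and 7 lower. Pappa, the protease that cuts IGFBP-4, was at 1.16, 1.75 and 1.13 in male 4, 5 and 6 and at 2.82, 7.96 and 4.18 in female 4, 5 and 6 (log2 fold change 1.27, SE 0.28, limma adjusted p 0.00381). Stc2, a stanniocalcin that blocks PAPP-A, was at 87.8, 74.8 and 76.9 against 9.59, 11.1 and 10.6 (log2 fold change -2.82, SE 0.09, limma adjusted p 9.57e-08). Its relative Stc1, named after its values were seen, was at 246 ± 64.8 against 52.9 ± 7.10 (SD, n = 3, log2 fold change -2.18). Transcripts of Igfbp4 and of both PAPP-A inhibitors were thus lower, and that of Pappa higher, in the same libraries. Htra1, another protease of IGF-binding proteins, was also higher (0.82). The other 5 called proteases were lower like the inhibitors, namely Plat, the tissue plasminogen activator (-2.71), and Adamts1 (-2.30), Adam12 (-0.81), Mmp14 (-0.77) and Plau (-0.74), of which the last 4 were named after their values were seen.

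Receptors and adaptors that pass the signal on were called higher in 4 and lower in 7 of 14 tested genes. Irs1, the docking protein of the insulin and IGF-1 receptors, was at 10.6, 5.49 and 4.70 in male 4, 5 and 6 and at 26.9, 36.1 and 34.4 in female 4, 5 and 6 (log2 fold change 2.14, SE 0.25, limma adjusted p 9.52e-05). It rose in the libraries in which Igf1r and Insr were lower. The phosphatase Ptpn11 was higher (0.85) and the adaptor Sh2b2 lower (-1.83). In the PI3K-AKT-FOXO arm, 6 of 15 tested genes were higher and 5 lower. Its catalytic subunit gene Pik3cb stood at 45.5 ± 0.858 against 2.75 ± 0.428 (SD, n = 3, log2 fold change 3.64, limma adjusted p 6.61e-08), and Akt1 was higher (0.95), whereas the regulatory subunit gene Pik3r1 (-1.76) and the transcription factor Foxo1 (-1.35) were lower.

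The growth hormone receptor Ghr, through which growth hormone drives Igf1 in liver, was at 194 ± 7.78 against 68.5 ± 10.9 (SD, n = 3), and it rose by 1.499 on the log2 scale (limma adjusted p 4.79e-06). It was the 1 gene called higher of 7 tested growth hormone genes, while 4 were lower, among them Stat5a (-1.02), which relays the signal, and Socs3 (-1.64), which dampens it. Proteins that carry an IGFBP domain or complete the IGF complex were called higher in 2 and lower in 3 of 5 tested genes, with Esm1 (2.43) and Crim1 (1.12) higher and Htra3 (-3.26) and Htra4 (-1.31) lower. Genes that attach or read the mannose 6-phosphate tag were mostly not called, with 1 of 7 higher (Gga3, 0.96) and 2 lower (Nagpa, -0.47, and Gnptab, -0.21). All 3 genes for proteins that bind Igf2 mRNA were called, but Igf2bp1 passed the filter on low values only through the female-labelled libraries, so its call adds nothing to the count. Igf2bp1 was at 8.84 ± 0.697 against 0.774 ± 0.0670 (log2 fold change 2.47) and Igf2bp3 at 12.9 ± 1.29 against 2.35 ± 0.229 (2.05), both higher, while the more abundant Igf2bp2 was lower at 165 ± 10.8 against 298 ± 50.4 (-0.84, SD, n = 3).

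**Figure D4:**
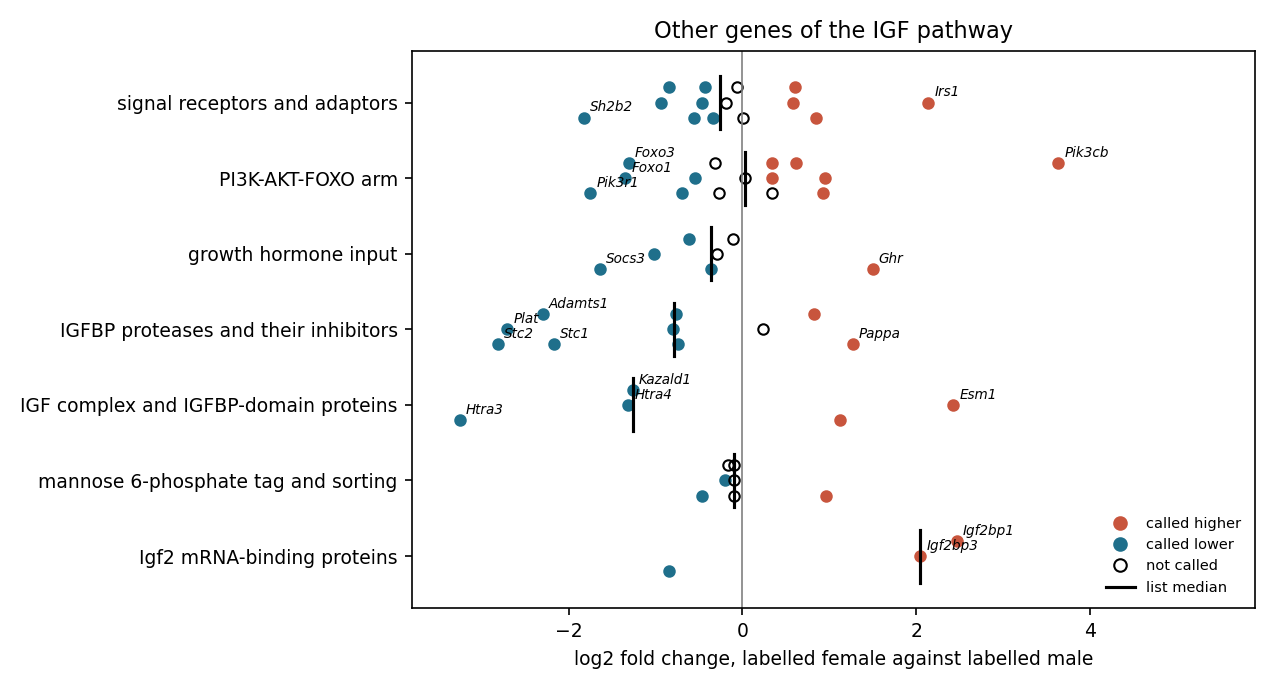
Log2 fold change between female-labelled and male-labelled libraries for 61 other genes of the IGF pathway in 7 lists, with 1 point for each gene, filled where the limma adjusted p was under 0.05 (red higher, blue lower), and a bar for the median of the list. Height within a row only spreads the points. In the list of proteases and inhibitors, the inhibitors Stc1 and Stc2 and the proteases Plat and Adamts1 lie far to the left and Pappa to the right, and 6 of the 7 mannose 6-phosphate genes lie between -0.47 and 0.

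Profiles most like those of the members were ranked by the root-mean-square difference of gene-centred log2 values over the 6 libraries, among genes with a mean of at least 10. Nearest to Igf1r were Atg2b (0.0450) and Insig2 (0.0536), and nearest to Igf2r were Kdm4b (0.0340) and Col8a1 (0.0369). Igfbp7 was most like Ak3 (0.0212) and Dync1i2 (0.0218), and Igfbp3 most like Wdr92 (0.0252) and Pnpt1 (0.0356). Igf1 was closest to Plekhh3 (0.0736) and Abhd16a (0.0825), and Igfbp5 to Hoxb4 (0.0636) and Sbsn (0.0711). Matches were looser for Igfbp4, with Tnfrsf9 (0.123) and Gpr56 (0.141), for Igfbp6, with Lmnb1 (0.147) and Hmgcs1 (0.151), for Igf2, with Itga2 (0.222) and Orai2 (0.246), and for Igfbp2, with Gm3776 (0.274) and Ajuba (0.279). These distances are on the log2(value + 1) scale, which shrinks the change of the weakly expressed Igf1, Igf2, Igfbp2, Igfbp5 and Igfbp6 more than that of their more abundant matches. As plain ratios the matches of Igfbp5, Igfbp6 and Igfbp2 changed less than those genes did. The female-labelled mean of Igfbp5 was 24.9% of the male-labelled one, while Hoxb4 went from 27.4 to 13.6. Igfbp6 was at 0.949 and 4.31 and Lmnb1 at 25.8 and 61.1, and Igfbp2 at 0.0912 and 5.99 and Gm3776 at 1.46 and 18.5, in the male-labelled and female-labelled libraries. The distances describe 6 libraries that fall into 2 groups.

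In the authors' deposited table, 3 of the 10 members had a false discovery rate under 0.05, where 25.8% of all its genes do. These were Igfbp4 with a fold change of -6.61 (false discovery rate 6.17e-07), Igf2r with -2.39 (0.00360) and Igfbp2 with 62.7 (0.00665) in the authors' deposited table. Igf1r (0.0526) and Igfbp5 (0.0599) lay just above that threshold in the authors' deposited table, and Igf1 (0.149), Igfbp6 (0.145) and Igfbp7 (0.274) farther from it. Directions in the authors' deposited table were those given here for all 10 members.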

How the data were processed

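The deposited table holds 1 column for each of 6 libraries and 3 columns of the authors' comparison. The submitters' processing notes name Bowtie2, RSEM and edgeR and the build mm39, without their roles. Signal in the deposited columns is a read count scaled by the authors: per column, 100% of the values were whole multiples (within 0.001) of the smallest value above 0, so reads could be recovered by division. The score column is the authors' signed fold change, and the p-value columns are their raw and adjusted (false discovery rate) values, per the file headers. No column of per-sample values was left without a sample.

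Groups came from the sex label. The main test was limma 3.58.1 in R 4.3.3 (eBayes with trend) on log2(value + 1), for the 12568 genes that reached 1 in 3 or more libraries, with Benjamini-Hochberg adjustment and a threshold of 0.05. Alternatives were RLE factors, quantile normalization, other filters, a pseudocount of 0.1, edgeR 4.0.16, DESeq2 1.42.0 and voom on recovered reads, the replicate block and leaving out each library. Scripts were tested on simulated data. Same-numbered libraries did not deviate together (correlations across genes of -0.09, -0.03 and -0.17). With 3 libraries in each group and male 4 apart from its group, these correlations cannot show whether the numbers pair libraries. Lengths and shared 50-mers came from GENCODE M21 (GRCm38), a build other than mm39, so the only coordinates given are those of the RefSeq promoter windows on GRCm38.p6. Single ratios used exact permutation tests (scipy 1.17.1). The intervals of read counts cover counting error only.

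Members, lists and tests were chosen with earlier results of these data known. Named pathway genes are, per list, the called genes with the 2 highest and the 2 lowest log2 fold changes, and likeness was ranked to the 2 nearest genes. Of the marker lists, endothelial genes were called higher in 1 and lower in 8 of 10 tested, sinusoidal in 0 and 3 of 3, fibroblast and stellate in 1 and 8 of 9, smooth muscle and mural in 4 and 2 of 7, mesothelial in 5 and 2 of 7, hepatocyte in 1 and 1 of 2, macrophage in 2 and 1 of 3, and cholangiocyte in 1 and 5 of 6. Of the called markers, Vwf, Lum, Hgf and Ahsg passed the filter only through the libraries labelled male, and Wt1, Upk3b and Gpm6a only through those labelled female, so their calls add nothing to these counts. Over all genes tested 69.3% were called, 34.6% in each direction, and nothing is read from the marker counts.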

Additional observations from a re-analysis of the deposited data

How the results depend on the processing

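Of 151 values recomputed for the 10 members, 141 kept their direction and their side of the threshold, 9 passed it newly and 1 no longer passed. Those that changed were Igf2, Igf1r and Igfbp3, as given with each gene, and Igfbp3 also passed with RLE factors, DESeq2, voom, the replicate block (-0.20, adjusted p 0.0331) and without female replicate 6. The number of members called ran from 6, where a minimum of 10 reads in every library left 7 to be tested, to 9. With the replicate block there were 9 members, 47 other pathway genes and 8314 genes in all, and the labels do not say whether the numbers pair the libraries. Leaving out 1 library gave 7 to 8 members, 45 to 49 other pathway genes and 7373 to 9113 genes in all. Igfbp2 without any 1 library labelled female, and Igfbp5 without any 1 labelled male, fell under the filter and have no limma value. No called pathway gene changed direction under any alternative run. Gnptab and Pik3r3 lost their call in some, and Igf2bp1 has no limma value without any 1 library labelled female. With the median transcript length, chosen after the data were seen, the difference in share of summed IGFBP level (female minus male, in percentage points) was -42.0 for Igfbp4, 37.9 for Igfbp7 and 3.25 for Igfbp3, against -17.2, 19.1 and -2.81 with the longest, which reversed Igfbp3. The summed level itself (female minus male, per kilobase) was 41.4 with the longest, 25.3 to 50.4 when 1 library was left out, and -492 with the median length, a reversal. Leaving out 1 library gave -19.2 to -15.9 for Igfbp4, 17.5 to 21.3 for Igfbp7 and -3.21 to -2.31 for Igfbp3. The fit of edgeR without male 4, also added later, called the same 8 members and Igfbp3. Its share over all genes was not kept. With all 6 libraries edgeR called 68% of genes tested, and limma without male 4 called 74.8%, so nothing particular to the members is read from it. Depth limits Igf2, Igfbp2, Igfbp5 and Igfbp6, which rest on few reads.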
